A study of Mus musculus with 58 samples.

Results

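A set of 10 genes of cell cycle control was followed through adipose stem cells (ASC) of control mice and of mice without gonads. It holds the inhibitors of cyclin-dependent kinases Cdkn1a, Cdkn1b, Cdkn2a, Cdkn2b and Cdkn2c. With them are the transcription factor gene Trp53, its negative regulator Mdm2 and its target Ccng1, and the D-type cyclins Ccnd1 and Ccnd2, which drive the cycle. The genes were picked by name, for their ties to quiescence and senescence, by matching Ensembl mouse gene identifiers to symbols. They make up 10 of the 56953 genes in the count table. All 10 passed the count filter (at least 5 reads in more than 3 libraries) and are among the 12464 genes tested. The cells were sorted by FACS from inguinal white adipose tissue (iWAT) of C57BL6/J mice as CD45-/CD31-/CD34+ cells, with DPP4- cells collected as ASC1 and DPP4+ cells as ASC2. Testes or ovaries were taken out when the mice were 4 weeks old, and tissue was collected at 10 weeks after a fast of 4 h, from control mice of matching age as well. Each of the 8 groups (control or castrated male, control or ovariectomized female, in ASC1 and in ASC2) held 8 libraries, except control male ASC1 with 7 and ovariectomized female ASC1 with 3, which makes 58 libraries.

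Progress from rest into DNA synthesis is driven by D-type cyclins with CDK4 or CDK6 and is held back by 2 families of inhibitors. Cip/Kip proteins (p21 from Cdkn1a, p27 from Cdkn1b) bind many cyclin and kinase complexes, and INK4 proteins (p16Ink4a from Cdkn2a, p15 from Cdkn2b, p18 from Cdkn2c) bind CDK4 and CDK6 alone. p53 is held at a low level by the ubiquitin ligase MDM2 and, once stabilised, activates Cdkn1a, Mdm2 and Ccng1, so that the amount of p53 protein is set mainly after transcription. In connective tissue cells, p27 is known for marking quiescence, and p16 and p21 for marking senescence. A second transcript of Cdkn2a encodes p19Arf, which binds MDM2, and counts per gene cannot separate it from p16Ink4a.

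Cdkn1a, Mdm2 and Ccng1 are textbook p53 targets that were high together in a library described further on, so their promoters are shown. The windows, from RefSeq on mouse build GRCm38.p6, run from 250 bases before to 50 bases after a start site. They were searched for CATGNNNNNNCATG, a form of the spaced core of a p53 site. It reads the same on both strands and was held by 0.712% of all 32851 windows (234 of them). The full consensus without a spacer, which also allows other A or T letters inside the core, was held by 3 of all windows and by none of the members. RefSeq lists 2 start sites for Cdkn1a, and the upstream window, on the plus strand at chr17:29090729-29091028, held the core once, beginning 48 bases before the start site and printed in capitals. The window of Mdm2 lies on the minus strand at chr10:117710709-117711008 and that of Ccng1 on the minus strand at chr11:40755237-40755536. These letters do not occur in them, nor in the other 8 of the 11 windows found for 8 members. A match describes the letters and not a site in use, and other forms of the core were not searched for on their own. Sequence outside the windows was not searched, so a window without the letters does not show that a gene lacks a site. Sequences are written 5′ to 3′.
Cdkn1a, upstream start: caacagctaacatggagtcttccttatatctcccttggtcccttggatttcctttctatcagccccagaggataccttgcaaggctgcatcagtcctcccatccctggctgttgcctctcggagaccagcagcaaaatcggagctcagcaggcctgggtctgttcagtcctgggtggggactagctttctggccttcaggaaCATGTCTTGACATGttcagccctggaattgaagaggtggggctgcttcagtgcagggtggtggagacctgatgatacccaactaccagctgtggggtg
Mdm2: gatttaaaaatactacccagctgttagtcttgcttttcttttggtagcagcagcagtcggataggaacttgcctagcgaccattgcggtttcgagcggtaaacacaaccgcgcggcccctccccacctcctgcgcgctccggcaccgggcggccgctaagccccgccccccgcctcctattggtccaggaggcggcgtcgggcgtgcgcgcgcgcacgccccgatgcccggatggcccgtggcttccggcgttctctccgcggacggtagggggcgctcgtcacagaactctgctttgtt
Ccng1: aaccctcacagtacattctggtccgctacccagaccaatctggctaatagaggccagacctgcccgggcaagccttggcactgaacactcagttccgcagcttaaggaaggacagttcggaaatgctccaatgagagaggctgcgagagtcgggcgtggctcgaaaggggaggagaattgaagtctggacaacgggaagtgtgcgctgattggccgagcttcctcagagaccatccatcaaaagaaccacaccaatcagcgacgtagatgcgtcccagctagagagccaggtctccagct

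Total counts had a range of 106566 to 1421547 per library, and the 3 libraries of ovariectomized female ASC1 (named L, N and P) held 1114330, 256565 and 188599. Levels are given as CPM, the counts of a library scaled to a common total with TMM factors, and as mean ± SD over libraries, and in these bulk samples fewer cells with a transcript and less transcript per cell cannot be told apart. Dpp4 followed the gate in every treatment, with group means between 6.80 and 27.7 CPM in ASC1 and between 91.9 and 248 CPM in ASC2. The sex labels did not hold throughout. By Xist at 10 CPM or more in a male, or the summed Y-linked transcripts Ddx3y, Eif2s3y, Kdm5d and Uty at 10 CPM or more in a female, 27 of the 58 libraries went against their label, among them 8 of 8 of castrated male ASC1, 4 of 7 and 4 of 8 of control male ASC1 and ASC2, and 5 of 8 and 6 of 8 of control female ASC1 and ASC2. Groups are therefore named by their labels, counts of members called are also given without these libraries where a value is left, which is not so for castrated male ASC1. Counts over the other gene lists include all libraries. Tcf21, a transcription factor gene of visceral stroma, was at 10 CPM or more in 22 libraries. The study collected ASC1 and ASC2 from the same mice, but the labels do not tie a library to a mouse, and the comparisons treat libraries as separate samples. A gene was called at an adjusted p below 0.05 in the quasi-likelihood test of edgeR over all genes tested.

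Cdkn1a was present in every library. In ASC1 the lowest, median and highest values were 118, 222 and 278 CPM in control males, 143, 292 and 362 CPM in castrated males and 194, 223 and 282 CPM in control females. In ASC2 they were 209.7, 302 and 391 CPM in control males, 182, 264 and 1104 CPM in castrated males, 231, 314 and 488 CPM in control females and 248, 305 and 452 CPM in ovariectomized females. The ranges of ASC1 and ASC2 overlapped in control males, castrated males and control females, and the means of the 4 ASC2 groups (298 to 356 CPM) differed by less than their SDs. The 3 ovariectomized ASC1 libraries stood below all 55 others with 85.7 (L), 73.4 (N) and 105 (P) CPM. Between ASC2 and ASC1 the log2 fold change of Cdkn1a was 0.49 (SE 0.24) in control males and 0.53 (SE 0.23) in control females, which did not pass the adjusted threshold (adjusted p = 0.181 and 0.182 in edgeR's quasi-likelihood test). The 95% intervals of these differences, 0.01 to 0.96 and 0.07 to 1.00, keep them within a 2-fold change.

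Cdkn1b was the only gene of the 10 called after castration. In ASC2 of castrated males it was measured at 20.8, 56.1, 46.4, 12.8, 7.03, 20.5, 12.8 and 22.6 CPM in libraries I to P, and in ASC2 of control males at 24.7, 137, 79.1, 129, 29.7, 74.2, 31.5 and 28.5 CPM in libraries A to H. Of the castrated libraries, 6 lay below every control library, while J and K lay within the control range, so the groups overlapped. The mean fell from 66.7 ± 46.2 CPM in controls (SD, n = 8) to 24.9 ± 17.3 CPM after castration (SD, n = 8), a log2 fold change of -1.40 (SE 0.40, adjusted p = 0.0251 in edgeR's quasi-likelihood test). It was the single member called among the 10, beside 6.96% of all genes tested in this comparison. Without the 4 control libraries that went against their label Cdkn1b was again the 1 member called, at a log2 fold change of -1.87 (adjusted p = 0.00409 in edgeR), and with a fit of these 2 groups alone it was -1.37 and not called (adjusted p = 0.0884). Other transcripts moved in the same comparison. The summed fibroblast markers were at 3024 to 6641 CPM in castrated and 7047 to 11584 CPM in control ASC2, the summed immune markers at 207 to 779 and 89.1 to 248 CPM and the summed endothelial markers at 36.8 to 91.0 and 10.6 to 38.9 CPM. All 3 endothelial markers tested (Cdh5, Kdr and Pecam1) and 3 of 5 immune markers rose, and 4 of 14 immediate early and dissociation genes fell with none higher. Their part in the Cdkn1b result was not tested.

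Calls among the pathway genes around Cdkn1b in castrated against control ASC2 are to be read beside the 6.96% of all genes. Of 11 quiescence genes 3 fell and none rose, namely Klf4 (122 ± 109.6 to 46.0 ± 27.8 CPM, log2 -1.45, SE 0.41, adjusted p = 0.0217 in edgeR), Gas1 and Hic1. Of 12 G1 genes 1 rose, Ccne1, the cyclin of the step after the D-type cyclins (13.4 ± 9.46 to 31.8 ± 12.95 CPM, adjusted p = 0.0438). Of 25 further p53 targets 1 fell, Btg2, which is also an immediate early gene (171 ± 95.8 to 35.7 ± 30.3 CPM, log2 -2.26, SE 0.38, adjusted p = 5.33e-05 in edgeR). Of 14 senescence and secretory genes 2 rose, among them Timp1, and 1 fell, Cxcl1, while none of 20 proliferation genes, 14 p53 regulators or 3 other CDK inhibitor genes was called.

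In ASC1 the same comparison gave no change of Cdkn1b beyond the spread, with 40.2 ± 14.5 CPM in castrated males (SD, n = 8) and 45.9 ± 21.4 CPM in control males (SD, n = 7), a log2 difference of -0.13 with a 95% interval of -0.95 to 0.68. The difference between the castration effects in ASC2 and ASC1 was -1.26 (SE 0.58) on the log2 scale and was not called (adjusted p = 0.274 in edgeR). It rests on castrated ASC1 libraries that all went against their sex label. No member was called for that difference (2.41% of all genes), with 1 member at an unadjusted p below 0.05 in edgeR and 0 called by DESeq2 or limma voom. Control female ASC1 held Cdkn1b between 10.02 and 117 CPM, control female ASC2 between 16.6 and 92.3 CPM, and ovariectomized ASC2 between 11.5 and 75.7 CPM. Ovariectomized ASC1 had the highest mean, 132 ± 47.0 CPM (SD, n = 3), with libraries at 181 (L), 129 (N) and 86.7 (P) CPM.

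**Figure D1:**
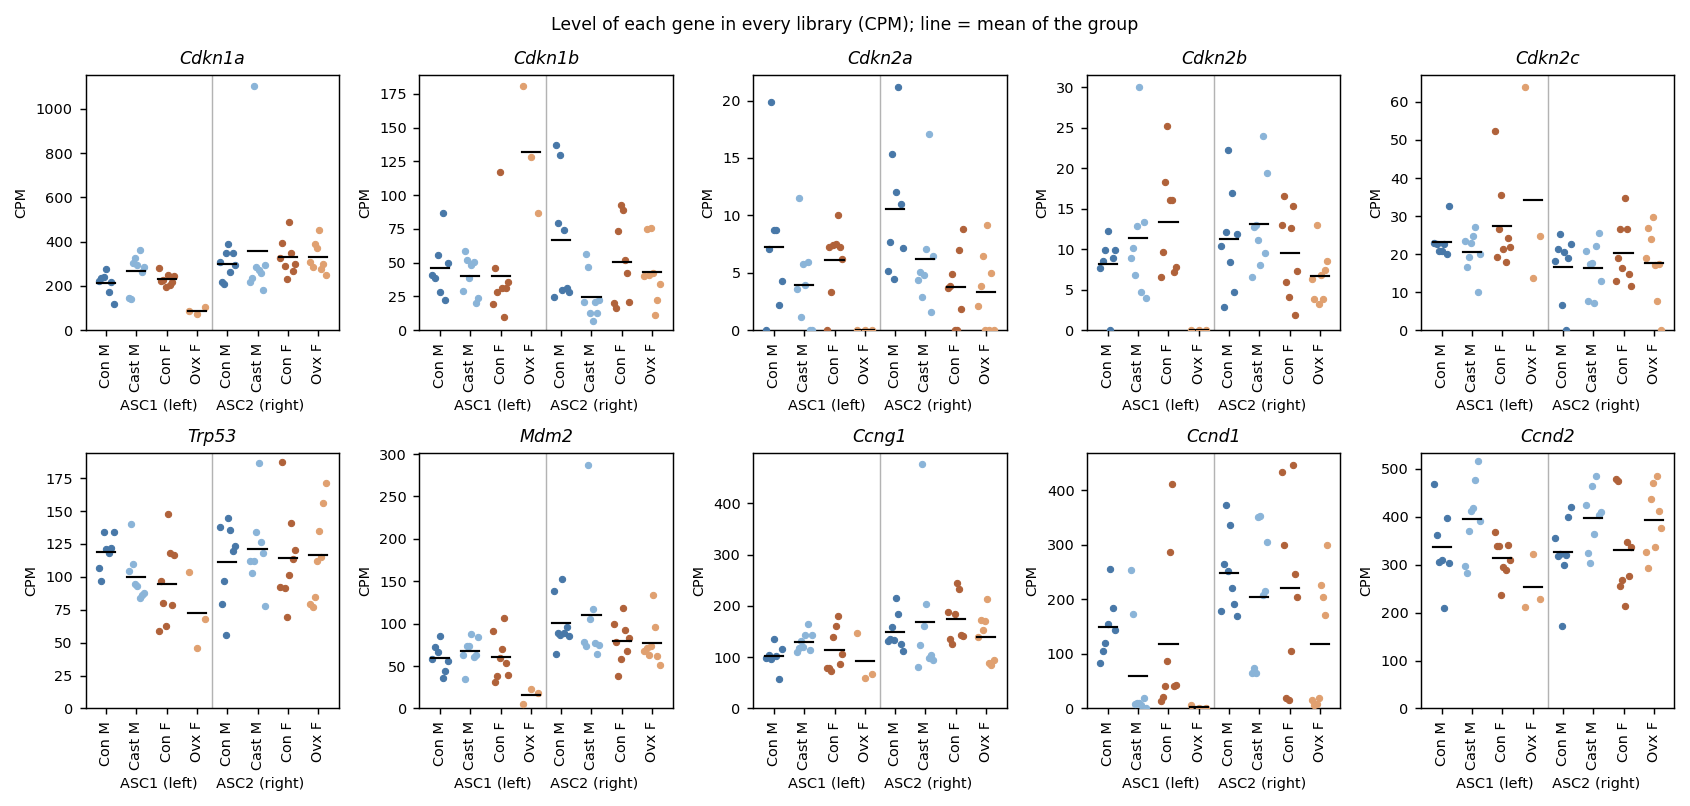
Level in CPM (y axis, linear) of each of the 10 genes in every library, by group (x axis: Con, control; Cast, castrated; Ovx, ovariectomized; M, male; F, female), with ASC1 left and ASC2 right of the grey line and a black line at each group mean. In ovariectomized ASC1 Cdkn1a, Mdm2, Cdkn2a, Cdkn2b and Ccnd1 lie low and Cdkn1b lies high, and a single library of castrated ASC2 lies far above the rest for Cdkn1a, Mdm2 and Ccng1.

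The INK4 genes were scarce. Cdkn2a had 250 reads over all 58 libraries and at least 1 read in 46 of them, Cdkn2b 398 reads in 54 libraries and Cdkn2c 861 reads in 56. Group means of Cdkn2a were 7.26 ± 6.47 and 10.5 ± 5.67 CPM in control male ASC1 and ASC2 and 3.97 ± 3.84 and 6.17 ± 4.75 CPM in castrated male ASC1 and ASC2. In females they were 6.12 ± 3.08 and 3.76 ± 3.14 CPM in control ASC1 and ASC2 and 3.32 ± 3.41 CPM in ovariectomized ASC2. Cdkn2b lay between 6.64 and 13.4 CPM, and Cdkn2c between 16.4 and 27.4 CPM, in the means of the same 7 groups, with SDs from 3.19 to 8.31 and from 4.32 to 11.5 CPM. In ovariectomized ASC1 neither Cdkn2a nor Cdkn2b had a read, whereas Cdkn2c was found at 64.0 (L), 13.8 (N) and 24.8 (P) CPM. At 3 reads over these 3 libraries the limit of detection was 2.39 CPM, so the pooled level was at least 2.82-fold lower than in control female ASC1 for Cdkn2a and at least 5.91-fold lower for Cdkn2b, for counting error only. This limit rests mostly on library L, with a total of 1114330 against 256565 in N and 188599 in P. Between control male and control female ASC2, Cdkn2a had the largest difference of the 10 (10.5 against 3.76 CPM, log2 1.41, SE 0.53), which edgeR did not call (adjusted p = 0.0995).

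Trp53 varied little between groups, with its lowest mean in ovariectomized ASC1. Its ASC1 means were 119 ± 13.5 CPM in control and 99.98 ± 18.6 CPM in castrated males, 94.9 ± 30.8 CPM in control and 72.7 ± 29.3 CPM in ovariectomized females. Its ASC2 means were 112 ± 31.5, 121 ± 31.4, 115 ± 36.4 and 116 ± 35.6 CPM in the same order. Trp53 was called in none of the comparisons at the main settings. By label, its log2 difference between castrated and control males had a 95% interval of -0.65 to 0.16 in ASC1 and -0.26 to 0.51 in ASC2. Between ovariectomized and control females it was -0.42 to 0.37 in ASC2. A 2-fold change lies outside each of these intervals, but all castrated ASC1 libraries went against their sex label. Between ASC2 and ASC1 of ovariectomized females the log2 difference was 0.55, with a 95% interval of -0.03 to 1.14 that holds a 2-fold change. The pseudogene Trp53-ps had 0 reads in all libraries.

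Mdm2 and Ccng1, which p53 activates, had higher means in ASC2 than in ASC1 without passing the threshold. In control males Mdm2 was at 59.98 ± 16.7 CPM in ASC1 (36.5 to 85.4) and at 100.3 ± 29.7 CPM in ASC2 (64.6 to 153). In control females the levels were 61.1 ± 26.7 and 79.8 ± 25.1 CPM. The log2 fold change was 0.72 (SE 0.27, adjusted p = 0.0602) and 0.41 (SE 0.26, adjusted p = 0.429) in edgeR. In control males Ccng1, whose product cyclin G1 takes part in p53 feedback, was at 102 ± 23.7 CPM in ASC1 and reached in ASC2 149.9 ± 34.4 CPM (log2 0.55, SE 0.26, adjusted p = 0.155 in edgeR) and at 113 ± 41.7 and 175 ± 46.1 CPM in control females (log2 0.60, SE 0.25, adjusted p = 0.152 in edgeR). In both sexes the ranges of the populations overlapped for both genes.

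Between the control populations, then, no member was called: 0 of 10 in males, beside 12.2% of all genes, and 0 of 10 in females, beside 6.11%. At an unadjusted p below 0.05 in edgeR there were 3 members in males (Mdm2, Ccng1 and Cdkn1a) and 2 in females (Ccng1 and Cdkn1a). DESeq2 and limma voom called none. None was called without the libraries that went against their label, which left 2 to 4 libraries per group. In control female ASC2 the 2 left, and in control male ASC1 the 3 left, were those with Tcf21 at 10 CPM or more. The fit therefore cannot speak for the libraries left out of these groups. Fitting only the groups compared called 2 in males, Mdm2 and Ccnd1. With a replicate block by the letter of the library, 3 were called in males (Mdm2, Ccng1 and Ccnd1, adjusted p = 0.0373, 0.0401 and 0.0435 in edgeR) and 1 in females (Ccng1, adjusted p = 0.0154), but the letters were not shown to mark mice. In castrated males 0 of 10 were called (9.09% of all genes), with 2 at an unadjusted p below 0.05 in edgeR, Mdm2 and Ccnd1, 0 called by DESeq2 and 1 by limma voom. Of the genes named for comparison, 14 immediate early and dissociation genes stood apart from this, with 7, 8 and 7 higher in ASC2 than in ASC1 of control males, control females and castrated males and none lower. In control females Fos, a component of AP-1, went from 111 ± 50.9 CPM in ASC1 to 939 ± 598 CPM in ASC2 (log2 3.08, SE 0.35, adjusted p = 1.22e-09 in edgeR).

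Around the members, single genes of the pathway differed between the control populations, in shares to be read beside the 12.2% and 6.11% of all genes. Of 25 further p53 targets, 2 were higher and none lower in ASC2 of control males, with a median log2 fold change of 0.37 beside -0.01 over all genes, and in control females 1 was higher and 1 lower. Btg2, an antiproliferative gene that is also an immediate early gene, was at 171 ± 95.8 CPM in ASC2 against 13.2 ± 9.53 CPM in ASC1 of males (log2 3.54, SE 0.43, adjusted p = 1.37e-08 in edgeR). Eda2r, the death receptor gene, was at 36.6 ± 12.2 against 8.84 ± 3.48 CPM. Of 14 senescence and secretory genes, 1 was higher and 4 were lower in ASC2 of males, and 1 was higher and 3 were lower in females. The chemokine gene Cxcl1 was the higher one in both sexes, and Timp1, an inhibitor of matrix metalloproteinases, was lower in both (1091 ± 217 against 2663 ± 1003 CPM in females). Of the 3 other CDK inhibitor genes tested, Cdkn2d, which encodes the INK4 protein p19, was lower in ASC2 of males (40.6 ± 8.84 against 63.3 ± 12.9 CPM, log2 -0.63, SE 0.22, adjusted p = 0.0481), and none was called in females. Of 11 quiescence genes 2 were higher and 1 lower in males, and 3 were higher and none lower in females, where Klf4 and the gate marker Cd34 were among the higher ones in both sexes.

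The D-type cyclins behaved unlike each other. Ccnd2 was even, with group means between 254 and 398 CPM and SDs from 40.9 to 98.9 CPM. Ccnd1 ran from 0 to 446 CPM and fell into high and low libraries inside groups of the same label. In castrated ASC1 libraries I and J held 253 and 174 CPM and the other 6 libraries 0 to 19.97 CPM. In ovariectomized ASC2 libraries I to L held 15.7, 6.72, 7.41 and 19.8 CPM and libraries M to P 227, 204, 171 and 299.8 CPM. In control female ASC1 E and F held 287 and 411 CPM against 13.1 to 87.6 CPM in the other 6, and in control female ASC2 C and D held 19.7 and 14.9 CPM against 106 to 446 CPM in the other 6. Most of the low libraries carried Tcf21. In the 22 libraries with Tcf21 at 10 CPM or more, Ccnd1 lay between 0 and 120.4 CPM with a median of 19.7 CPM, and in the 36 others between 0 and 446 CPM with a median of 218 CPM. Of those 36, 6 lay below 120.4 CPM, namely the 3 ovariectomized ASC1 libraries, castrated ASC2 I and K and control female ASC2 E. Library I of castrated ASC2 held Tcf21 at 8.77 CPM, just under the cut. Ccnd1 also ran with the summed level of 20 proliferation genes, which was 778 to 1330.1 CPM in 18 of the 22 libraries with Tcf21, 1732 to 2022 CPM in the other 4 (control male ASC1 and castrated ASC2) and 1602 to 2930.4 CPM in the 30 libraries whose Ccnd1 was above that of every library with Tcf21. These are descriptions of groupings noticed in the data and were not tested.

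**Figure D2:**
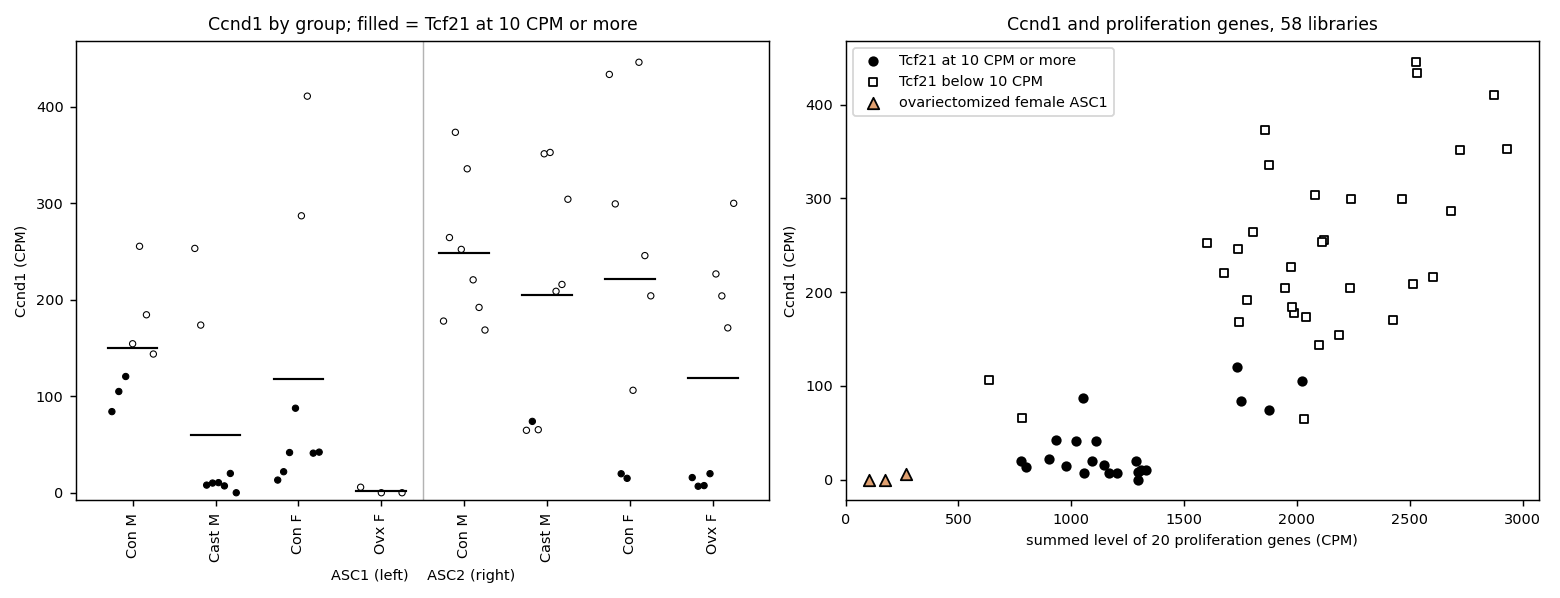
Left, Ccnd1 in CPM (y axis) in each library by group, with filled points for libraries with Tcf21 at 10 CPM or more and a line at the group mean. Right, Ccnd1 in CPM (y axis) against the summed CPM of 20 proliferation genes (x axis) in the 58 libraries. Filled libraries lie at or below 120.4 CPM of Ccnd1, and the 3 ovariectomized ASC1 libraries lie in the corner near 0 with 105 to 269 CPM of proliferation genes.

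With such spread, no difference of Ccnd1 between treatments was called outside the ovariectomized ASC1 group. Castrated against control male ASC1 gave 60.3 ± 97.0 against 149.6 ± 57.1 CPM (log2 -1.27, 95% interval -2.66 to 0.12), and ovariectomized against control female ASC2 gave 119 ± 119 against 221 ± 169 CPM (log2 -1.05, 95% interval -2.40 to 0.30). Castrated against control male ASC2 gave 204 ± 125 against 248 ± 74.4 CPM (log2 -0.29, 95% interval -1.56 to 0.98). Each interval holds both 0 and a change of more than 2-fold, so a change of that size was neither shown nor excluded with these libraries.

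Ovariectomy was followed by the most calls, all of them in ASC1. Against control female ASC1, 6 of the 10 genes were called (34.8% of all genes), of which Cdkn1b rose and Cdkn1a, Mdm2, Cdkn2a, Cdkn2b and Ccnd1 fell. The median log2 fold change of all genes in this comparison was -0.34, and that of the members was -0.86, pooling inhibitors and cyclins. The members' median does not move when Cdkn2a and Cdkn2b are set to their bounds. Mdm2 was at 5.71 (L), 22.9 (N) and 18.6 (P) CPM after ovariectomy against 31.4 to 106 CPM in controls (log2 -2.28, SE 0.53, adjusted p = 0.00056 in edgeR). Cdkn1a fell from 229.7 ± 28.2 CPM (SD, n = 8) to 88.1 ± 16.1 CPM (SD, n = 3), a log2 fold change of -1.39 (SE 0.36, adjusted p = 0.00217 in edgeR). Neither range overlapped that of the controls, which was so for 4 of the 10 members, beside 20.9% of all genes tested. Ccnd1 had 5 reads in L and 0 in N and P against 13.1 to 411 CPM in controls (adjusted p = 0.0138). Cdkn1b rose by 1.72 on the log2 scale (SE 0.50, adjusted p = 0.00584), from 39.9 ± 33.0 CPM in controls, where library D at 117 CPM lay within the range of the ovariectomized libraries. Adjusted p values of Cdkn2a and Cdkn2b, each without a read after ovariectomy, were 0.0136 and 0.000298. Trp53, Ccng1, Cdkn2c and Ccnd2 were not called, at log2 differences of -0.33 (SE 0.29), -0.23 (SE 0.36), 0.59 (SE 0.42) and -0.31 (SE 0.23). Without library L these were -0.80, -0.87, -0.50 and -0.21, so that the direction of Cdkn2c turned, and none was called.

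The same 6 members were called without the control libraries that went against their label. Without library L, the deepest of the 3, 2 libraries remained and 2 of the 10 members were called, Cdkn1a (log2 -1.40, adjusted p = 0.0233 in edgeR) and Cdkn2b (adjusted p = 0.0286). Mdm2 then had a log2 fold change of -1.52 (adjusted p = 0.0684) and Cdkn1b of 1.36 (adjusted p = 0.126), while Ccnd1 and Cdkn2a, without a read in N and P, had adjusted p values of 0.0776 and 0.163. The directions of all 6 were the same with and without L. The 3 libraries also stood apart in other ways. They had 9122 to 11622 genes detected, summed fibroblast markers at 43144 to 45105 CPM against 5122 to 9137 CPM in control female ASC1, and proliferation genes at 105 to 269 CPM against 800.4 to 2872 CPM, with 19 of 20 proliferation genes lower. Immediate early and dissociation genes summed to 3245 to 4572 CPM against 289 to 503 CPM, with 10 of 14 higher and none lower. The 5 epithelial markers (Epcam, Krt5, Krt8, Krt14 and Krt18) were at 0 in all 3 libraries against a sum of 39.4 to 744 CPM in controls, and the immune markers at 9.18 to 42.3 against 68.1 to 389.9 CPM. The part of these in the calls was not tested.

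Genes around the members are given for the same comparison, in shares to be read beside the 34.8% of all genes called. Of 12 G1 cyclins, kinases and retinoblastoma family genes tested, 6 fell and none rose, among them Cdk4 (505 ± 115 to 202 ± 35.3 CPM, log2 -1.34, SE 0.22, adjusted p = 2.19e-06 in edgeR) and Cdk6 (51.2 ± 11.9 to 3.05 ± 5.28 CPM), the kinases of the D-type cyclins, and Ccne1, which had no read. Of 11 quiescence genes, a list that holds the gate marker Cd34, 8 rose and 1 fell, and Txnip, a brake on glucose uptake, went from 174 ± 65.1 to 2157 ± 643 CPM (log2 3.65, SE 0.32, adjusted p = 2.06e-13). Of 25 further p53 targets 4 rose and 7 fell, with a median log2 fold change of -0.71 beside -0.34 over all genes. The antiproliferative gene Btg2 was higher (14.3 ± 4.95 to 82.9 ± 60.9 CPM) and the death receptor gene Tnfrsf10b lower (24.4 ± 8.42 to 0.762 ± 1.32 CPM). Of 14 senescence and secretory genes 2 rose and 6 fell, among them Timp1 (2663 ± 1003 to 86.6 ± 40.6 CPM, log2 -4.91, SE 0.50, adjusted p = 9.18e-12 in edgeR). Of 14 p53 regulators tested, 1 fell, the kinase gene Hipk2, and none rose.

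Against ASC2 of ovariectomized mice the same 3 libraries gave 7 calls (35.4% of all genes), with Cdkn1a, Mdm2, Cdkn2a, Cdkn2b, Ccnd1 and Ccnd2 higher and Cdkn1b lower in ASC2. This comparison shares its ASC1 libraries with the one above and adds no separate evidence for them. The median log2 fold change was 0.37 over all genes and 1.28 over the members, or 0.74 with Cdkn2a and Cdkn2b at their bounds. Cdkn1a was at 329.5 ± 68.8 CPM in ASC2 (log2 1.92, SE 0.37, adjusted p = 3.95e-05 in edgeR) and Mdm2 at 77.4 ± 26.2 CPM (log2 2.68, SE 0.53, adjusted p = 5.2e-05), both above the range of ASC1. Ccnd2 had 392 ± 70.04 CPM in ASC2 against 254 ± 59.0 CPM in ASC1 (log2 0.63, SE 0.24, adjusted p = 0.0309). Without the libraries that went against their label 6 were called, and without library L 2 were, Cdkn1a (log2 1.92, adjusted p = 0.00178) and Mdm2 (log2 1.91, adjusted p = 0.0177). The other 5 kept their direction without L, with Cdkn1b at a log2 fold change of -1.25 and Ccnd2 at 0.52. In ASC2, by contrast, 0 of 10 were called between ovariectomized and control females (2.09% of all genes), and none had an unadjusted p below 0.05 in edgeR. None was called by DESeq2 or limma voom, or without the libraries that went against their label, which left 2 control libraries. These 2, C and D, were the only ones of control female ASC2 with Tcf21 at 10 CPM or more (30.5 and 29.9 CPM). Leaving out the others therefore cannot decide whether the result holds for the group. A 95% interval inside a 2-fold change was found for 7 of the 10. The difference between the ovariectomy effects in ASC1 and ASC2 was not tested.

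**Figure D3:**
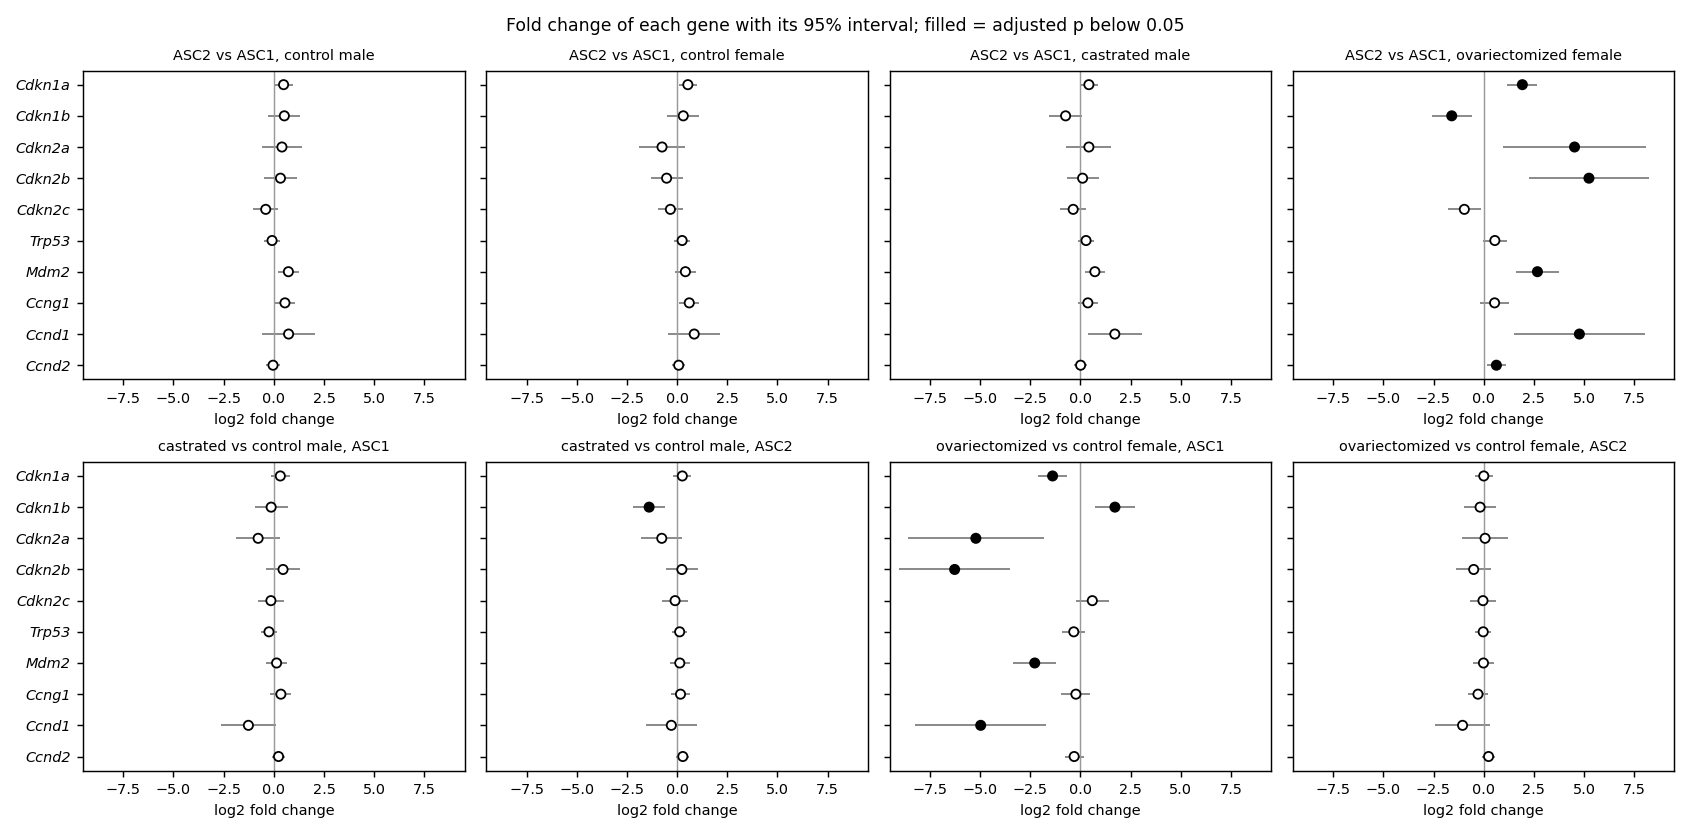
Log2 fold change (x axis) of the 10 genes in 8 comparisons, with its 95% interval as a line and filled points where the adjusted p was below 0.05. Filled points are found only in the 2 panels with ovariectomized ASC1 (7 and 6) and for Cdkn1b in castrated against control ASC2.

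After castration the members other than Cdkn1b did not differ beyond the spread. In ASC1 0 of 10 were called (2.36% of all genes), none at an unadjusted p below 0.05 in edgeR and none by DESeq2 or limma voom. There 7 of 10 had a 95% interval inside a 2-fold change, but all castrated libraries went against their sex label. In ASC2 Cdkn1a was at 356 ± 305 CPM (SD, n = 8) against 298 ± 64.4 CPM in controls (log2 0.26, SE 0.23), Mdm2 at 109.8 ± 73.9 against 100.3 ± 29.7 CPM and Ccng1 at 168 ± 131 against 149.9 ± 34.4 CPM. The large SDs of these 3 genes came from library K of castrated ASC2, and so did the direction. Without K the log2 differences were -0.23 for Cdkn1a, -0.22 for Mdm2 and -0.24 for Ccng1, none of them called.

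Library K held Cdkn1a at 1104 CPM, where the other 7 libraries of its group lay at 182 to 294 CPM (249 ± 40.1, SD). It held Mdm2 at 287 CPM against 63.9 to 117 CPM (84.4 ± 19.4) and Ccng1 at 477 CPM against 80.0 to 203 CPM (124 ± 43.7). For all 3 genes this was the highest value of the 58 libraries, and 4.44, 3.40 and 3.87 times the mean of the other 7. Trp53 itself was at 112 CPM in K, within the 77.6 to 187 CPM of the others, and Cdkn1b, Cdkn2a, Cdkn2b, Cdkn2c and Ccnd1 lay within the range of the others too. Ccnd2 was the lowest of the group at 303 CPM against 324 to 484 CPM.

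The other p53 targets were then read in this library, chosen after its values had been seen and therefore without a test. Of 25, K was the highest of the 8 libraries for 17, between for 7 and the lowest for 1 (Ckap2), while each of the other 7 libraries was the highest for 0 to 2. The share of all genes at which K was the highest was not counted. K was also the highest for 7 of 14 immediate early and dissociation genes and 3 of 4 ASC2 markers, and the lowest for none of these. Of 14 p53 regulators it was the highest for 2 and the lowest for 3. Pmaip1, which encodes the death-promoting BH3 protein NOXA, was at 87.1 CPM in K against 3.82 to 16.1 CPM, Trp53inp1 at 49.3 against 0 to 20.4 CPM and Btg2 at 107 against 18.6 to 45.3 CPM. Eda2r, a death receptor gene, was at 66.7 against 8.92 to 35.6 CPM, Sesn2 at 46.4 against 11.0 to 27.1 CPM and Ei24 at 53.7 against 12.7 to 23.9 CPM. The DNA repair genes Xpc (24.7 against 3.20 to 12.1 CPM) and Ddb2 (5.80 against 0 to 3.23 CPM, on 4 reads) stood above the others, whereas Bax, Bbc3, Ddit4, Gdf15, Phlda3, Sesn1 and Zmat3 lay within their range. Over all 58 libraries, K was the highest for only 7 of the 25. Btg2, Ei24, Xpc and Ddb2 were not among these, and reached 390, 56.0, 25.8 and 11.5 CPM in libraries of other groups. Proliferation genes were low in K, with 19 of 20 below all other libraries of the group and a sum of 781 CPM against 1874 to 2930 CPM. Top2a, which untangles DNA in dividing cells, was at 18.9 against 147 to 193 CPM and Mki67 at 8.71 against 51.7 to 106 CPM. K had 730574 reads and 13295 genes detected, inside the range of its group, held immediate early and dissociation genes at 1660 CPM against 381 to 1646 CPM, and carried Y-linked transcripts as its label asks. Its summed ASC1 markers were the lowest of the group at 24.7 CPM against 113 to 468 CPM, with Col15a1 at 1.45 against 71.8 to 436 CPM. Its summed ASC2 markers (3144 against 564 to 3118 CPM), quiescence genes (1701 against 613 to 1151 CPM) and mural markers (52.2 against 16.4 to 35.2 CPM) were the highest. The part of these in the p53 target levels was not tested. Leaving K out changed no count of members called in the comparisons with castrated ASC2, and Cdkn1b then had a log2 fold change of -1.56 (adjusted p = 0.0164 in edgeR).

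**Figure D4:**
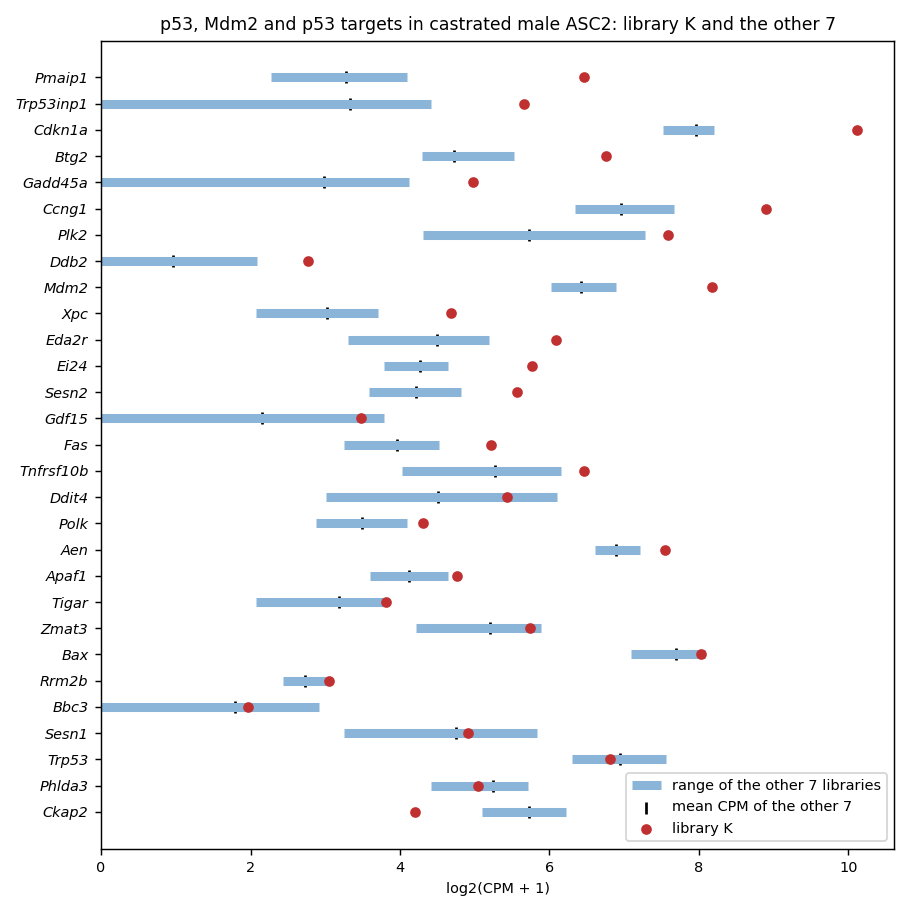
Levels of Trp53, Mdm2 and 27 p53 targets in castrated male ASC2, as log2 of CPM plus 1 (x axis). Red points are library K, blue bars span the lowest to the highest of the other 7 libraries and black ticks mark the mean CPM of those 7. For Cdkn1a, Mdm2, Ccng1 and 17 of the 25 others the red point lies right of the bar, and for Trp53 it lies on the bar.

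Between the sexes no member was called. Control males against control females gave 0 of 10 in ASC1 (0.289% of all genes), with none at an unadjusted p below 0.05 in edgeR and none called by DESeq2 or limma voom. In ASC2 they gave 0 of 10 (6.5% of all genes), with 1 member, Cdkn2a, at an unadjusted p below 0.05 in edgeR, 0 called by DESeq2 and Cdkn2a called by limma voom. Castrated males against control females in ASC2 gave 0 of 10 (1.41% of all genes), with Cdkn1b at an unadjusted p below 0.05 in edgeR and none called by DESeq2 or limma voom. Ovariectomized females against control males in ASC2 gave 0 of 10 (18.3% of all genes), with Cdkn2a at an unadjusted p below 0.05 in edgeR, 0 called by DESeq2 and Cdkn2a and Ccnd1 called by limma voom. None of these 4 counts changed without the libraries that went against their label. The libraries then left in control female ASC2 and in control male ASC1 all had Tcf21 at 10 CPM or more. For these groups the unchanged counts cannot speak for the libraries left out.

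Across the 58 libraries, which share differences in depth and group so that ranks are given as a description only, the gene ranked most like Ccnd1 among 10542 was Rrm2, a ribonucleotide reductase subunit gene of DNA synthesis (Spearman's rho 0.87). Edn1 was nearest to Cdkn1a (0.63), with Mdm2 second (0.62), Nqo1 to Mdm2 (0.67), Trmt10c to Ccng1 (0.70), and Ppp5c to Trp53 (0.77). Spry2 was nearest to Cdkn1b (0.77), Ap1s1 to Cdkn2a (0.67), Smarcc1 to Cdkn2b (0.52), Tmem205 to Cdkn2c (0.53) and Myl6 to Ccnd2 (0.71). Between members, Mdm2 and Ccng1 had a rho of 0.56, Cdkn1a and Ccng1 of 0.51 and Cdkn1b and Ccnd2 of -0.60. Trp53 had 0.14 with Cdkn1a, 0.29 with Mdm2 and 0.15 with Ccng1, and its highest rho with a member was 0.57, with Ccnd1.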

How the data were processed

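Sorted ASC were profiled as bulk RNA with Smart-seq3, where some reads have a unique molecular identifier and the rest cover the transcript. The authors trimmed reads with NGmerge, used STAR 2.7.10a for quality control, quantified reads with Salmon 1.9.0 on Gencode transcripts of GRCm39, removed libraries with fewer than 8500 genes detected and deposited estimated counts per gene for the reads with and without identifiers together, without normalization. Of the deposited counts above 0, 15.0% were not whole, and all were rounded.

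Counts were analysed in R 4.3.3 with edgeR 4.0.16 (TMM normalization, glmQLFit and glmQLFTest, 1 coefficient for each of the 8 groups, all 58 libraries) after keeping the 12464 genes that reached 5 reads in over 3 libraries, with Benjamini-Hochberg adjustment over all of them and a threshold of 0.05. The study compared the sexes in these sorted samples with DESeq2 for a short list of genes. Here edgeR was the main test and DESeq2 1.42.0 an alternative. SE is the absolute log2 fold change over the square root of the F statistic, and intervals use the t distribution with the degrees of freedom of the fit. The biological coefficient of variation was 35.6%. Further alternatives were no count filter, robust estimation, filterByExpr, scaling by library size or by RLE factors, limma voom 3.58.1 with a correlation between libraries of a presumed mouse (same sex and letter, consensus 0.0522), only the groups compared, a replicate block by letter, and leaving out libraries (library K of castrated ASC2 was added after seeing the data). Symbols came from Gencode on GRCm38 by identifier, for 12371 of the genes tested, and promoters from RefSeq.

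All 10 genes are named, with list genes that passed the threshold at a mean of at least 5 CPM, the largest changes first. The members, lists and tests were chosen with earlier results of these data known. On simulated data for castrated against control ASC2, 174 of 200 genes changed 4-fold among 12112 were recovered with 7 false calls. No library was a copy of another of its group, with a chi-square of at least 1.53 per gene. The p-values measure the spread between these libraries. A gene of the lists is not reported here.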

Additional observations from a re-analysis of the deposited data

Results flagged for a closer look

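Of 70 sets of values (10 genes in the 7 groups of 7 or 8 libraries), 9 held a library whose gap to its neighbour was large against the range of its group by Dixon's criterion, where chance flags about 1 in 20 groups. Library K of castrated male ASC2 was the highest for Cdkn1a (1104 CPM, next 294 CPM), Mdm2 (287 CPM, next 117 CPM) and Ccng1 (477 CPM, next 203 CPM), and it is the only library flagged for more than 1 of the genes. The other flags were single values. Cdkn1b was at 117 CPM in library D of control female ASC1 (next 46.0 CPM), Cdkn2a at 17.1 CPM in library N of castrated male ASC2 (next 7.03 CPM) and Cdkn2b at 30.1 CPM in library M of castrated male ASC1 (next 13.3 CPM). Cdkn2b was listed at 0 in library F of control male ASC1 (next 7.64 CPM, which is 3 reads). Cdkn2c was at 32.7 CPM in library H of control male ASC1 (next 22.9 CPM), and Trp53 at 140.5 CPM in library J of castrated male ASC1 (next 109.6 CPM).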

How the results depend on the processing

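No direction of a called gene reversed under any alternative. Counts of members called changed as follows. For ASC2 against ASC1, 2 members were called in control males with only the groups compared and 3 with a replicate block by letter, 1 in control females with the replicate block (Ccng1), 1 in castrated males with no count filter and 1 with limma voom (Ccnd1), and 4 in ovariectomized females with only the groups compared. Letters were not shown to pair libraries, since same-letter correlations exceeded 0.1 in 5 of 7 pairs of control males, 3 of 8 of control females and 0 of 8 of castrated males. In ovariectomized females 0 of 3 exceeded 0.1, though the same letter was the best match in 3 of 3. Between control male and control female ASC1, which differ in sex by label, 5 of 7 exceeded 0.1 as well. In castrated against control male ASC2, 0 were called with only the groups compared. Limma voom called 1 in control male against control female ASC2 and 2 in ovariectomized female against control male ASC2. Leaving out each ovariectomized ASC1 library gave 2 to 6 members in each of its comparisons. The cause was not tested, beyond the fewer libraries in the fits with only the groups compared and in those without a library. Cdkn2a and Cdkn2b rest on 250 and 398 reads in all, which limits what can be said of them.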
